A study of Sus scrofa with 24 samples.

Results

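Heat shock proteins and chaperones were followed in the loin muscle of pigs fed different fats. The members were the genes whose symbol in the array's annotation starts with HSPA, HSPB, HSPD, HSPE, HSPH, HSP90, DNAJ, CCT or BAG followed by a digit, PFDN or PDIA, together with TCP1. A probe set counted when it carried exactly 1 symbol, and each gene was represented by the probe set with the highest mean signal over the 24 arrays. The rule gave 62 genes of the 6765 genes with such a probe set. Of these, 61 lay above the signal filter and were tested, and DNAJC6, which encodes auxilin, a J protein of clathrin uncoating, lay below it. Families were assigned by gene symbol. The tested members were 10 of the HSP70 group (HSPA genes and HSPH1), 3 HSP90 genes, 7 small heat shock proteins, and HSPD1 and HSPE1. The others were 6 subunits of the chaperonin CCT, 4 prefoldins, 5 genes of the BAG group with HSPBP1, 21 J proteins and 3 protein disulfide isomerases.

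Total RNA from longissimus dorsi, the long muscle of the loin, of 24 Landrace × Large White × Duroc crossbred pigs was hybridised to 1-colour Affymetrix arrays, 1 array per pig. The feed contained 3.0% of a single fat, either soybean oil, olive oil, coconut oil or beef tallow, and each was given to 3 gilts (young females) and 3 barrows (castrated males). The trial used 72 pigs in 24 pens, 6 pens per fat and 3 pigs per pen, starting at about 71 kg and 130 days of age. The sources used here do not tie sampled pigs to pens, so pigs entered as independent and neither errors nor p-values allow for pens. There was no group without added fat, and the sources used here do not give the time on the diets. Pigs are named by the running number in their sample title, 1 to 12 for gilts and 13 to 24 for barrows.

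Chaperones bind unfolded or newly made proteins and keep them from aggregating. HSP70 proteins work in cycles of ATP hydrolysis that J proteins start and nucleotide exchange factors such as BAG proteins and HSPH1 complete; HSP90 and the ring-shaped chaperonins take over selected clients. Small heat shock proteins hold unfolded proteins without ATP and are abundant in muscle, where contraction strains the filaments, while the endoplasmic reticulum (ER) has its own HSP70 (HSPA5, also called BiP), its own HSP90 (HSP90B1, also called GRP94) and disulfide isomerases.

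The muscle label was borne out by its markers. All 8 of the 12 listed muscle markers that had a probe set were above the filter, with median signals of 45642 for CKM, 39891 for MYH7 and 34780 for TTN. Array medians lay between 138 and 174 signal units and the mean correlation of an array with the others between 0.912 and 0.933, with pigs 11, 16 and 12 lowest. In whole muscle, fewer cells of a type and less RNA per cell cannot be told apart. Differences below are on the scale of log2(signal + 1) from limma, with Benjamini-Hochberg adjustment over all 14399 probe sets tested and an adjusted p under 0.05 as the threshold. A member was written as risen or fallen only past that threshold.

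By the probe set chosen for each gene, members passed the threshold in a single comparison, coconut oil against beef tallow in barrows. There HSPA12A, a distant and atypical relative of HSP70, fell with coconut oil. So did PDIA3, an ER oxidoreductase that folds glycoproteins with calnexin and calreticulin, and no other member passed. A second probe set of HSPA9 also passed there, as given below. HSPA12A and PDIA3 were 2 of 61 members, against a background of 2.07% of all probe sets tested. At an unadjusted p under 0.05 there were 7 members (3 higher and 4 lower, 11.5%) against 21.2% of all probe sets. A count of 2 is too small to set apart from that background.

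HSPA12A had signals of 165, 209 and 132 in the tallow barrows (pigs 16, 21 and 24) and of 55.8, 80.5 and 97.2 in the coconut barrows (pigs 15, 20 and 23). All 3 coconut barrows lay below all 3 tallow barrows, at a log2 difference of -1.12 ± 0.29 (SE; 95% interval -1.71 to -0.52; 2.17-fold; limma adjusted p = 0.0466). In gilts the signals were 99.5, 136 and 163 with tallow (pigs 2, 8 and 10) and 115, 83.4 and 76.2 with coconut oil (pigs 1, 5 and 6). Here the groups overlapped, at pigs 1 and 2. The gilt difference was -0.53 ± 0.29 (95% interval -1.13 to 0.07) and did not pass. The barrow and gilt differences themselves differed by -0.59 ± 0.41, which was not past the threshold either (limma adjusted p = 0.878). The olive oil barrows lay close together, at 110, 103 and 112, and the olive oil gilts at 200, 117 and 148. With soybean oil the barrows had 138, 134 and 186, and the gilts 72.1, 148 and 151, where pig 3 stood well below the other two. The coconut barrow values lie around the filter limit of 86.3, so this gene was measured near the floor of what was tested.

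PDIA3 had signals of 2272, 1843 and 1338 in the tallow barrows and of 840, 867 and 1269 in the coconut barrows. The groups did not overlap, although pigs 24 and 23, the nearest of the 2 groups, lay close to each other. The log2 difference was -0.87 ± 0.22 (95% interval -1.33 to -0.40; 1.82-fold; limma adjusted p = 0.0468). In gilts the signals were 1349, 1599 and 1354 with tallow and 1286, 1567 and 1707 with coconut oil, a difference of 0.08 on the log2 scale. The difference between the barrow and the gilt values was -0.94 ± 0.32 (unadjusted p = 0.00716, limma adjusted p = 0.856), so a dependence on sex was not shown after adjustment. A second PDIA3 probe set differed by -0.61 ± 0.24 in barrows and did not pass (limma adjusted p = 0.152); it had a correlation of 0.69 with the first over the 24 pigs.

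Both calls were narrow. That for HSPA12A was kept when pig 2, 3, 4, 7, 11, 12 or 24 was left out and lost when any other pig was, with an adjusted p from 0.0319 to 0.182; that for PDIA3 was kept only without pig 7, 11, 12 or 24 (adjusted p from 0.0181 to 0.198). Both were also lost with no signal filter, with quantile normalization, with each array centred on its median, without pigs 11, 12 and 16, and with only the compared arrays in the fit. The HSPA12A call was lost as well with a trended and robust spread.

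Markers of other cell types differed between the same barrows. Of the fibroblast and matrix markers, 4 of 7 were lower with coconut oil, at a median of -1.09 and a summed signal of 20982 to 24310 against 37526 to 68334 with tallow. Of the adipocyte markers, 1 of 6 passed (FABP4, lower), at a median of -1.49 and a summed signal of 9977 to 11595 against 23666 to 37354. All of these 13 markers had negative differences, whether past the threshold or not. Muscle markers had a median difference of 0.08 with 0 of 8 called, and 1 of 7 immediate early genes was higher (NR4A3). Median differences were -0.57 for 6 leukocyte, -0.21 for 6 endothelial, -0.22 for 2 erythrocyte and -0.71 for 3 satellite cell markers, with 0 called in each list. The part of these cell types in the HSPA12A and PDIA3 differences was not tested.

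Other members differed in the barrows without passing. Groups that did not overlap were not particular to the genes named next. DNAJA1, PDIA4, HSPA8 and HSPB8, among others, did not overlap either. The share of such probe sets over the whole array is not given here, so non-overlap is a description only. DNAJB6, a J protein that suppresses aggregation and is mutated in a limb-girdle muscular dystrophy, had signals of 1544, 1151 and 1493 in the tallow barrows and 1963, 2773 and 2328 in the coconut barrows. All coconut barrows lay above all tallow barrows (0.75 ± 0.20, 95% interval 0.34 to 1.17, 1.68-fold, limma adjusted p = 0.0525). DNAJB6 passed in 6 of 10 other settings (adjusted p down to 0.0207) and without pig 2, 7 or 12 (adjusted p from 0.0173 to 0.163 over the pigs left out). Olive oil barrows were nearly identical, at 2349, 2350 and 2333, in the range of the coconut barrows, and soybean oil barrows had 1869, 1970 and 1617. In gilts the DNAJB6 groups overlapped (2514, 1795 and 1996 with tallow; 2557, 2341 and 2452 with coconut oil) and the difference was 0.23. The other 3 DNAJB6 probe sets differed in barrows by 0.48, 0.25 and 0.56, and none passed.

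HSPA13, an ER-associated HSP70 relative that lacks the substrate-binding domain, had signals of 1024, 889 and 754 in the tallow barrows and 521, 601 and 563 in the coconut barrows. The groups did not overlap (-0.65 ± 0.21, limma adjusted p = 0.0891), and a second probe set differed by -0.85. In gilts the difference was -0.02, and the change in difference between the sexes was -0.64 ± 0.29 (limma adjusted p = 0.856). BAG6, which handles mislocalised membrane proteins, had 1031, 892 and 1264 in the tallow barrows and 1659, 1573 and 1338 in the coconut barrows, again without overlap (0.53 ± 0.22, limma adjusted p = 0.184). For BAG1, an HSP70 exchange factor, the barrow difference was 0.40 ± 0.18 and the groups overlapped (limma adjusted p = 0.211). BAG5, another member of that family, differed by 0.32 in barrows and -0.43 in gilts, neither past the threshold.

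DNAJB14, a J protein of the ER membrane, had differences of like size in both sexes. Its signals with tallow were 238, 270 and 258 in barrows and 267, 269 and 283 in gilts, and with coconut oil 200, 210 and 171 in barrows and 207, 179 and 213 in gilts. All 6 coconut pigs lay below all 6 tallow pigs. The difference was -0.40 ± 0.18 in barrows, -0.45 ± 0.18 in gilts and -0.43 ± 0.13 over both sexes. None was past the threshold (limma adjusted p = 0.201, 0.977 and 0.0778). Over both sexes, soybean oil minus tallow was -0.31 ± 0.13 and olive oil minus tallow -0.24 ± 0.13. Olive oil minus coconut oil was 0.19 ± 0.13, and soybean oil minus coconut oil 0.12 ± 0.13. These did not pass either. Tallow had the highest mean of the 4 fats, so a difference particular to coconut oil was not shown. For coconut oil minus tallow in gilts, 2 members had an unadjusted p under 0.05, against 4.7% of all probe sets. They were DNAJB14 and DNAJC17, a nuclear J protein (0.41 ± 0.18). By limma none of the 61 members passed there, and the background was 0%.

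**Figure D1:**
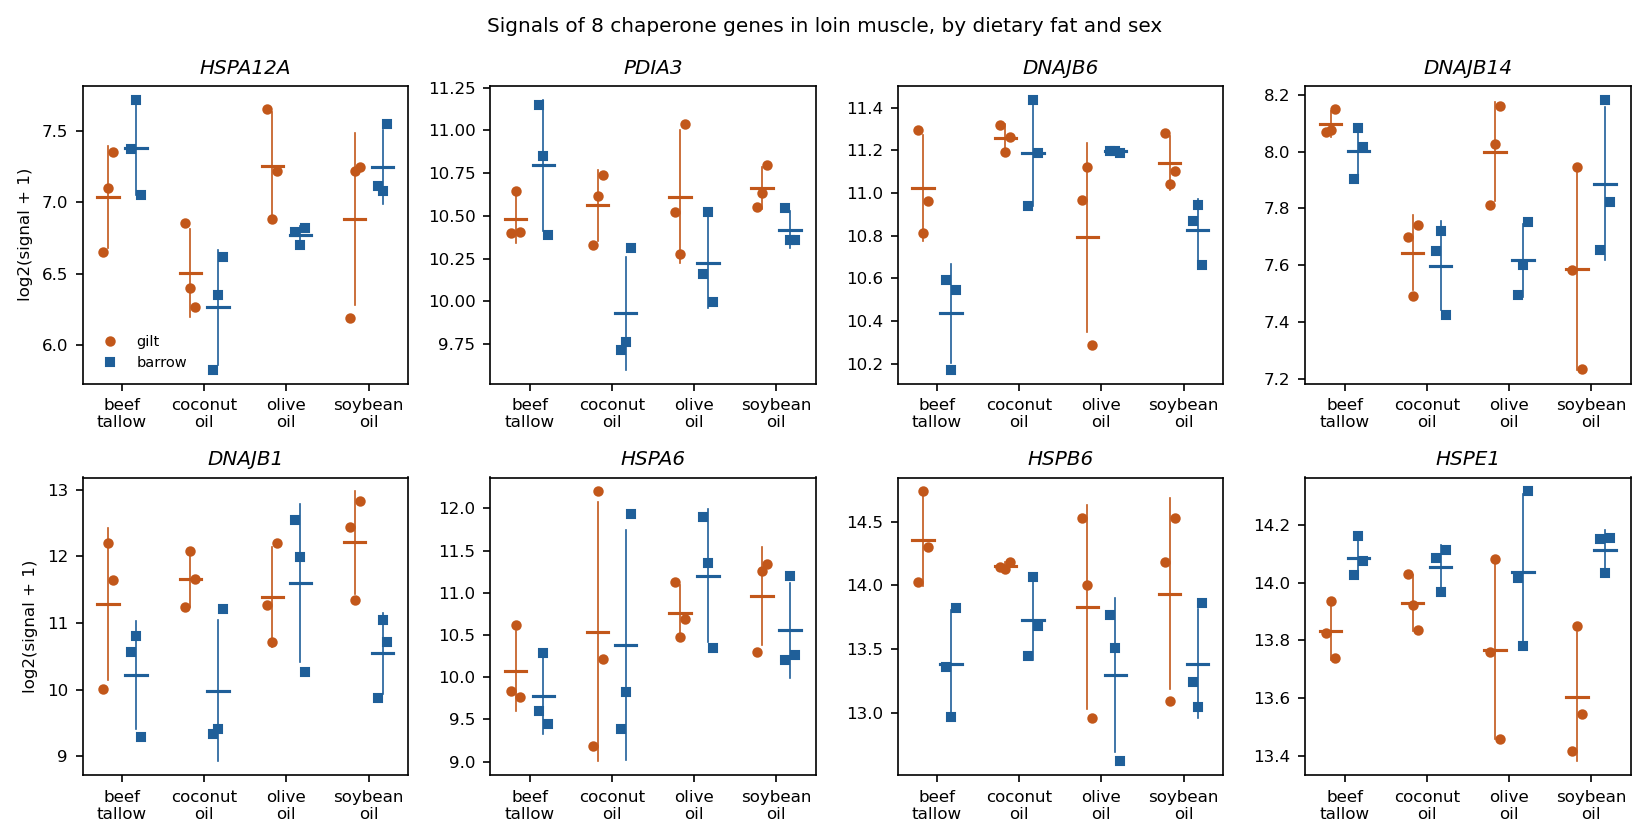
Array signal (log2 of signal + 1) of 8 chaperone genes in each pig, by dietary fat and sex; orange circles are gilts, blue squares are barrows, the bar is the mean of 3 pigs and the line its SD. HSPA12A and PDIA3 are low in the coconut barrows. DNAJB14 lies lower in the coconut than in the tallow pigs of both sexes, without passing the threshold. The points of DNAJB1 and HSPA6 spread widely within groups.

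Over the families, the direction in barrows differed while sizes were mostly small. The 3 disulfide isomerases had negative differences, at a median of -0.47, and PDIA3 alone passed; the differences were -0.47 for PDIA4 and -0.39 for PDIA6 (limma adjusted p = 0.301 and 0.288). The 6 chaperonin subunits, which form the ring that folds actin and tubulin, all had positive differences, between 0.05 and 0.27 and none past the threshold. Medians were 0.34 for the small heat shock proteins (5 of 7 positive), 0.32 for the BAG group (4 of 5), 0.31 for the J proteins (14 of 21), 0.15 for the HSP70 group (6 of 10), 0.12 for HSPD1 and HSPE1, -0.01 for HSP90 and -0.04 for the prefoldins. Over all 61 members the median was 0.11, with 39 positive, and over all probe sets -0.07; centring arrays on their median moved the latter by 0.13 and the members' median to 0.24. In gilts the corresponding medians were 0.04 for the members (35 positive) and -0.00 for all probe sets, with 0.08 for the disulfide isomerases, 0.11 for the chaperonin subunits, -0.16 for the small heat shock proteins and 0.02 for the J proteins.

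**Figure D2:**
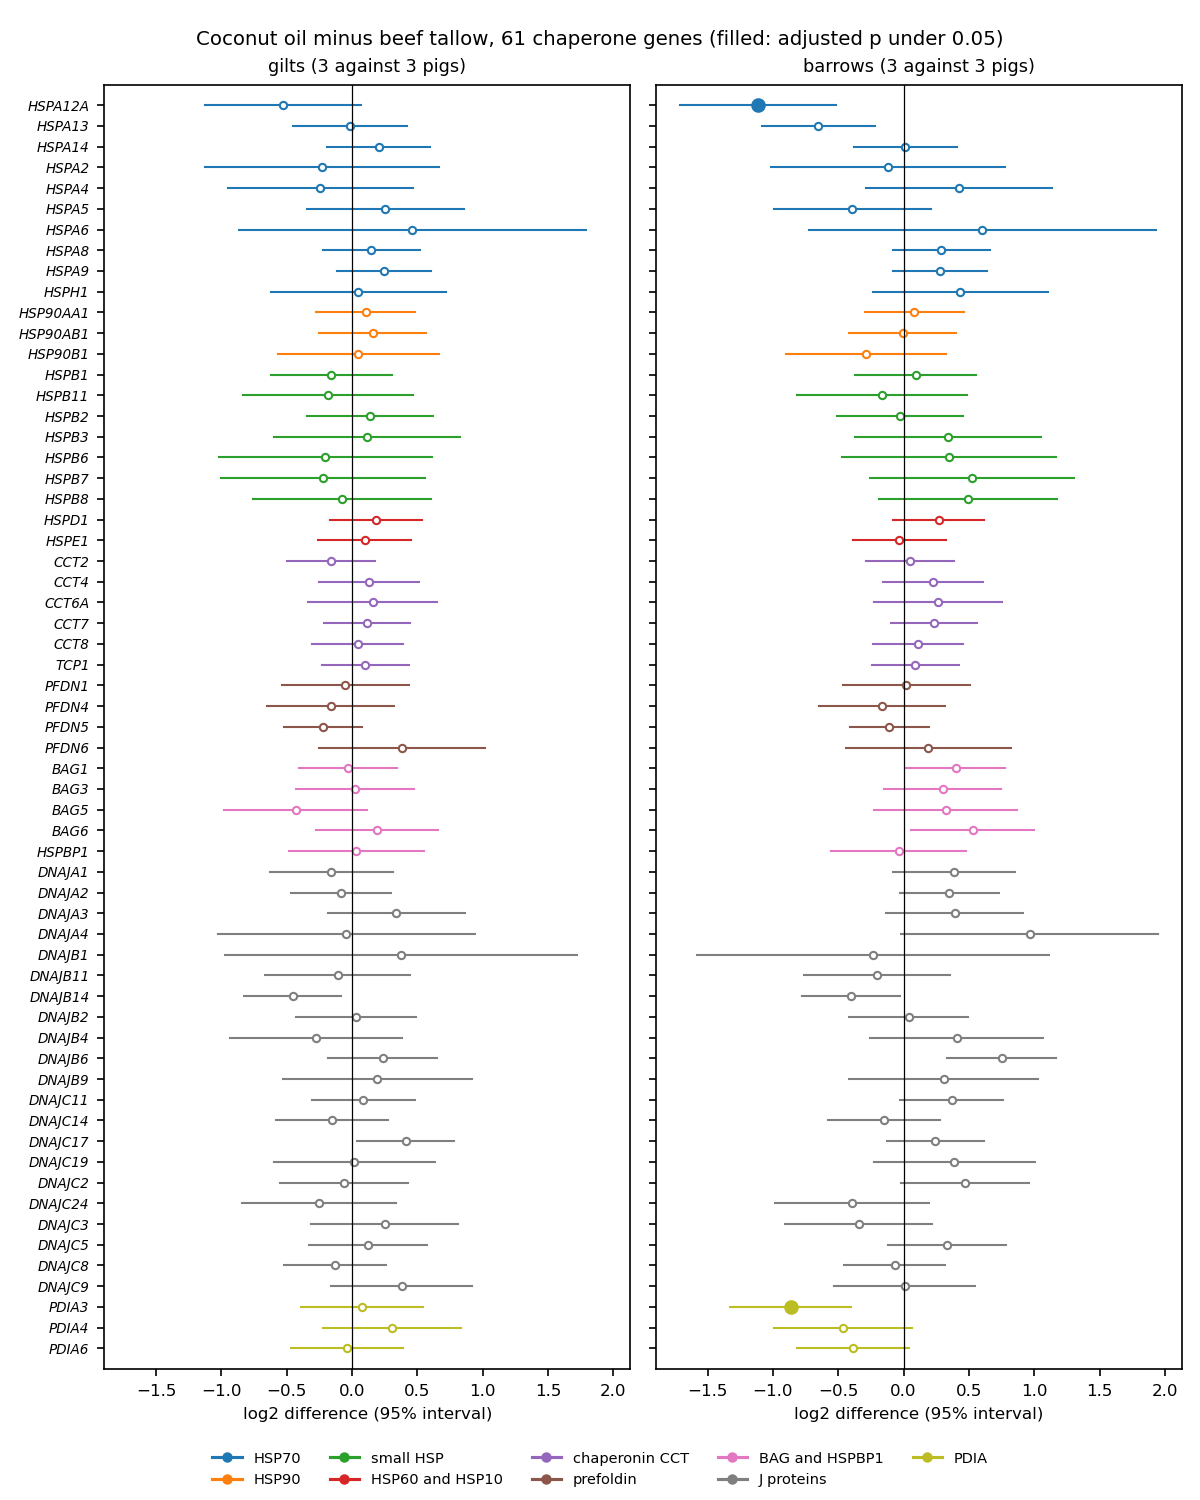
Log2 difference of coconut oil minus beef tallow for the 61 tested chaperone genes, in gilts and in barrows; points are the estimates from limma, lines are 95% intervals, colours are families and filled points have an adjusted p under 0.05. Only HSPA12A and PDIA3 in barrows are filled, both to the left of 0, and most gilt intervals hold 0.

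Averaged over the sexes, coconut oil minus tallow gave 0 of 61 members past the threshold by limma against 1.12% of all probe sets, and 8 members at an unadjusted p under 0.05 (13.1%, 4 higher and 4 lower) against 19.8%. The smallest adjusted p was that of HSPA12A (-0.82 ± 0.20, 1.77-fold, limma adjusted p = 0.0516), followed by DNAJB6 (0.49 ± 0.14, 0.0725) and DNAJB14. HSPA9, the mitochondrial HSP70, had a difference of 0.26 ± 0.12 (limma adjusted p = 0.234). Its second probe set was higher with coconut oil in barrows by 0.80 ± 0.21 and passed (limma adjusted p = 0.0457), beside 0.28 for the probe set with the highest signal. Among the 32 other tested probe sets of 23 members, 2 passed in any comparison, this one and one of HSP90B1 between the sexes. Of all probe sets, 2.07% passed for coconut oil minus tallow in barrows and 4.77% between the sexes. The share passing in any comparison is not given here, so the count of 2 is a description only. HSPD1, the mitochondrial chaperonin, had signals of 6230 to 8761 (median 6993) with tallow and 7127 to 10227 (median 8383) with coconut oil, which overlapped.

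The test over all 4 fats gave 0 members and 0% of all probe sets past the threshold by limma, and 3 members at an unadjusted p under 0.05 (HSPA12A, DNAJB6 and DNAJB14) against 11.6%. Within barrows it gave 0 members against 0%, and 4 unadjusted (DNAJB6, HSPA12A, PDIA3 and HSPA13) against 13.5%. Within gilts it gave 0 against 0%, and 1 unadjusted (DNAJB14) against 5.43%. The interaction of fat and sex gave 0 members against 0% by limma, and 2 unadjusted, DNAJB6 and PDIA3, against 6.22%. Both had a limma adjusted p of 0.778.

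No member passed in the other comparisons of fats, and no probe set of the array did (0% in each by limma). For olive oil minus tallow, 1 member had an unadjusted p under 0.05 against 6.44% of all probe sets. This was HSPA6, a strictly stress-inducible HSP70, at signals of 1304 to 3812 (median 1941) with olive oil and 696 to 1566 (median 892) with tallow. The groups overlapped, but all 6 olive oil pigs lay above the tallow mean (1.06 ± 0.45, 95% interval 0.12 to 2.00, 2.08-fold, limma adjusted p = 0.722). With soybean oil HSPA6 ranged from 1176 to 2590, and with coconut oil from 582 in pig 1 to 4720 in pig 5, the widest of the 4 fats. DNAJB1, the main heat-inducible J protein of the cytosol, differed by 0.75 ± 0.46 between olive oil and tallow.

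For soybean oil minus tallow, 1 member (DNAJB14, -0.31 ± 0.13) had an unadjusted p under 0.05, against 3.46% of all probe sets. For olive oil minus coconut oil there were 3 against 8.85%, HSPA12A (0.62 ± 0.20), HSPD1 (-0.25 ± 0.12) and HSPA2 (0.64 ± 0.30), the last a testis-enriched HSP70. For soybean oil minus coconut oil there were 3 against 13%, HSPA12A (0.68 ± 0.20), CCT6A (-0.42 ± 0.17) and BAG6 (-0.37 ± 0.16). For soybean oil minus olive oil there was 1 against 3.18%, HSPA14 (0.28 ± 0.13), a ribosome-associated HSP70. The comparisons of fats share groups, so their values are not independent: each fat serves in 3 of the 6 pairs. In these 5 pairs member medians lay between -0.10 (soybean oil minus coconut oil, 20 of 61 positive) and 0.05 (olive oil minus tallow, 34 positive).

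Between barrows and gilts, averaged over the fats, 0 of 61 members passed by limma against 4.77% of all probe sets. The count of 0 became 9 with array weights and 6 without pig 9. At an unadjusted p under 0.05 there were 16 members (26.2%, 8 higher and 8 lower in barrows) against 21.1%. The members with the smallest p included 4 higher in barrows by about 0.3 to 0.4 and 2 lower by more. HSPE1, the co-chaperonin of HSPD1, had signals of 14084 to 20396 (median 17308) in the 12 barrows and 10939 to 17325 (median 14566) in the 12 gilts. The sexes overlapped, with 11 of 12 barrows above the gilt mean (0.29 ± 0.09, limma adjusted p = 0.0556). HSPD1, its neighbour in the RefSeq annotation of Sscrofa11.1, differed by -0.05 between the sexes.

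PFDN4, a prefoldin subunit that passes actin and tubulin to the chaperonin, ranged from 1576 to 2559 (median 1985) in barrows and from 1185 to 2297 (median 1541) in gilts, with all 12 barrows above the gilt mean (0.39 ± 0.12, limma adjusted p = 0.0585). HSPA8, the constitutive cytosolic HSP70, ranged from 14360 to 25730 (median 20805) in barrows and from 13262 to 21036 (median 16981) in gilts (0.29 ± 0.09, limma adjusted p = 0.0644). CCT6A, a chaperonin subunit, had medians of 3002 in barrows and 2632 in gilts (0.33 ± 0.12, limma adjusted p = 0.111). All of these overlapped between the sexes. DNAJC2, the ribosome-associated J protein that partners with HSPA14, differed by 0.34 ± 0.12.

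DNAJB1 had signals of 626 to 5964 (median 1598) in barrows against 1025 to 7310 (median 3221) in gilts, a difference of -1.05 ± 0.32 that did not pass (2.07-fold, limma adjusted p = 0.0668). The ranges overlapped widely, and 10 of 12 barrows lay below the gilt mean. In the olive oil barrows alone DNAJB1 was 5964, 4079 and 1228, so pigs 17 and 18 stood among the high gilts. DNAJA4, another cytosolic J protein, differed by -0.63 ± 0.24 (limma adjusted p = 0.124), with 717 to 4197 in barrows and 1372 to 4239 in gilts.

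None of the 7 small heat shock proteins passed between the sexes by limma; 4 had an unadjusted p under 0.05, with 2 positive and 2 negative differences, against 21.1% of all probe sets. HSPB6 (HSP20, which binds actin regulators and is phosphorylated by protein kinase A) had 6299 to 17131 (median 11400) in barrows and 7964 to 27359 (median 18344) in gilts. All 12 barrows lay below the gilt mean, yet the ranges overlapped (-0.62 ± 0.20, limma adjusted p = 0.0735); a second HSPB6 probe set gave -0.60 and had a correlation of 0.94 with the first. HSPB7, found in heart and skeletal muscle, differed by -0.50 ± 0.19. In the other direction, HSPB8, the partner of BAG3 in chaperone-assisted autophagy, differed by 0.41 ± 0.16 and HSPB3, a muscle small heat shock protein, by 0.43 ± 0.17. The adjusted p of these 3 lay at 0.126, 0.147 and 0.149. HSPB1 (HSP27) differed by 0.18 and HSPB2, which forms complexes with HSPB3, by -0.05. HSPB11, an intraflagellar transport protein counted in this family only by its symbol, differed by -0.22.

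Several ER chaperones had negative differences between barrows and gilts, with none past the threshold by the probe set chosen. HSPA5 ranged from 3657 to 7022 (median 5124) in barrows and from 5267 to 15054 (median 5964) in gilts (-0.34 ± 0.14, limma adjusted p = 0.173). PDIA6 and PDIA3, both oxidoreductases, differed by -0.26 ± 0.10 and -0.24 ± 0.11. For HSP90B1 the 2 probe sets disagreed: the one with the higher signal differed by -0.31 ± 0.15 (limma adjusted p = 0.226), and the second by 0.69 ± 0.14 and passed (limma adjusted p = 0.0088). Their correlation over the pigs was 0.22, and no direction is given for this gene. DNAJB9, an ER J protein induced by unfolded proteins, differed by 0.44 ± 0.17. Beside these values, 1 of 6 adipocyte markers was lower in barrows (median -0.55) and 1 immediate early gene was higher. Of the fibroblast and matrix markers 0 of 7 passed (median 0.07), as did 0 of 6 endothelial (median -0.27) and 0 of 6 leukocyte markers (median 0.12). The part of these markers' cell types in the sex differences was not tested.

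**Figure D3:**
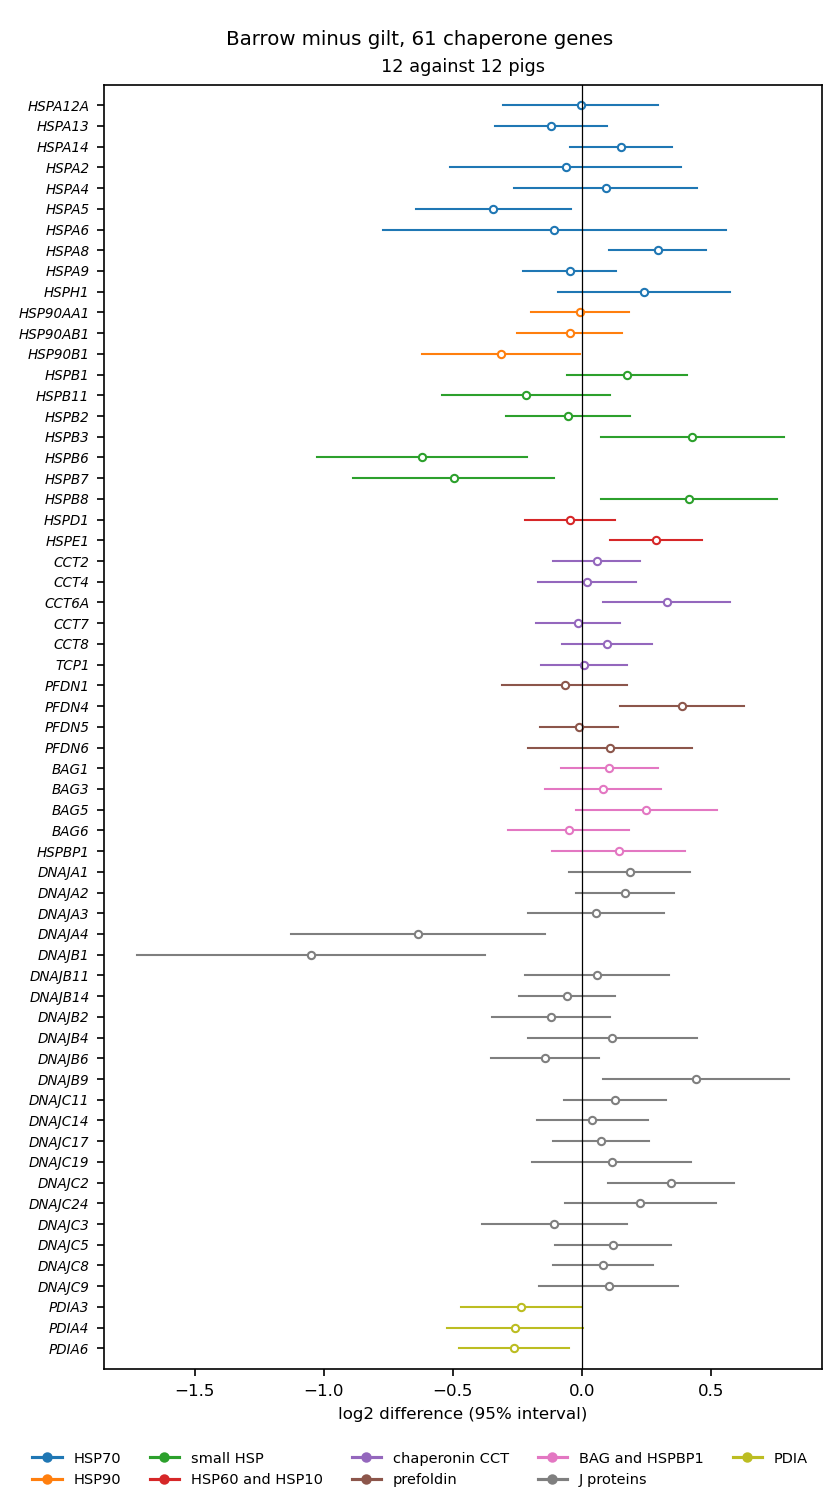
Log2 difference of barrow minus gilt, averaged over the 4 fats, for the 61 tested chaperone genes; points are limma estimates, lines are 95% intervals and colours are families. No gene passed the adjusted threshold by the probe set shown. DNAJB1 lies farthest to the left (-1.05), and the intervals for HSPE1, PFDN4 and HSPA8 lie to the right of 0.

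A list of other genes of the same pathways was tested as well. The list held 51 co-chaperones, regulators and folding enzymes that are not members, of which 35 had a probe set and 34 were tested. With coconut oil against tallow in barrows, 1 of 34 passed, against 2.07% of all probe sets. This was UNC45B, the chaperone that folds muscle myosin, higher with coconut oil (1.18 ± 0.29, 2.26-fold, limma adjusted p = 0.0440). At an unadjusted p under 0.05 there were 9 of 34 against 21.2% of all probe sets. In gilts there were 0 past the threshold by limma and 0 unadjusted, against 0% and 4.7%. Between the sexes 1 of 34 passed, against 4.77% of all probe sets. This was CANX (calnexin, the membrane lectin that works with PDIA3), lower in barrows (-0.38 ± 0.10, limma adjusted p = 0.0283). At an unadjusted p under 0.05 there were 6 of 34 against 21.1%. Counts of 1 are too small to set apart from these shares. Listed genes of the unfolded protein response, which adjusts ER folding capacity, did not pass in the coconut barrows. XBP1, a transcription factor of that response, differed by -0.68, CRELD2 by -0.56 and DDIT3, a stress-induced factor also called CHOP, by 0.81. STIP1, which hands clients from HSP70 to HSP90, differed by 0.56.

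The 2 genes for inducible HSP70, HSPA1A and HSPA1B, were not found under these symbols. The array's annotation holds an HSP70 symbol, HSP70.2, which the rule does not take. Which of the 2 genes it stands for was not tested. HSP70.2 signals ranged from 18711 to 35279 with tallow and 19636 to 35302 with coconut oil. They were 28174 to 40368 with olive oil and 20856 to 43935 with soybean oil, all overlapping. The differences were 0.00 for coconut oil minus tallow, 0.36 ± 0.19 for olive oil minus tallow and -0.08 for barrow minus gilt, and none passed. HSPA1L was not analysed here.

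The members differed widely in how much they varied between pigs. Over the 24 pigs the SD of log2 signal was 1.05 for DNAJB1, whose highest pig (11) was 11.7-fold above its lowest (24), 0.85 for HSPA6 (8.10-fold), 0.68 for DNAJA4 (5.92-fold), 0.58 for HSPA2 (4.37-fold), 0.57 for HSPB6 (4.34-fold) and 0.54 for HSPB7 (4.28-fold). At the other end the chaperonin subunits CCT2 and TCP1, the prefoldin PFDN5 and HSP90AA1 varied by 1.45-fold, 1.57-fold, 1.51-fold and 1.56-fold between the highest and the lowest pig. The median over the 61 members was 2.16-fold; 40 members exceeded 2-fold and 8 exceeded 4-fold. The SD within groups of 3 pigs had a median of 0.28 and ran from 0.13 to 0.88. Wide spread lay inside groups as well: among the tallow gilts DNAJB1 was 1025, 4686 and 3213, and among the coconut pigs HSPA6 was 4720 in pig 5 and 3909 in pig 23 against 582 to 1186 in the other 4.

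Other members lay between these ends. HSPB1 ranged from 14759 (pig 12) to 33617 (pig 7), and BAG3, the exchange factor that binds HSPB8, from 9173 (pig 12) to 18826 (pig 7). HSPH1, an HSP70 relative that acts as exchange factor, ranged from 3889 to 12155, and HSPA4, of the same kind, from 580 to 1930. HSP90AB1, the constitutive cytosolic HSP90, ranged from 7108 to 14224, and DNAJA1, a J protein partner of HSPA8, from 2773 to 6156.

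**Figure D4:**
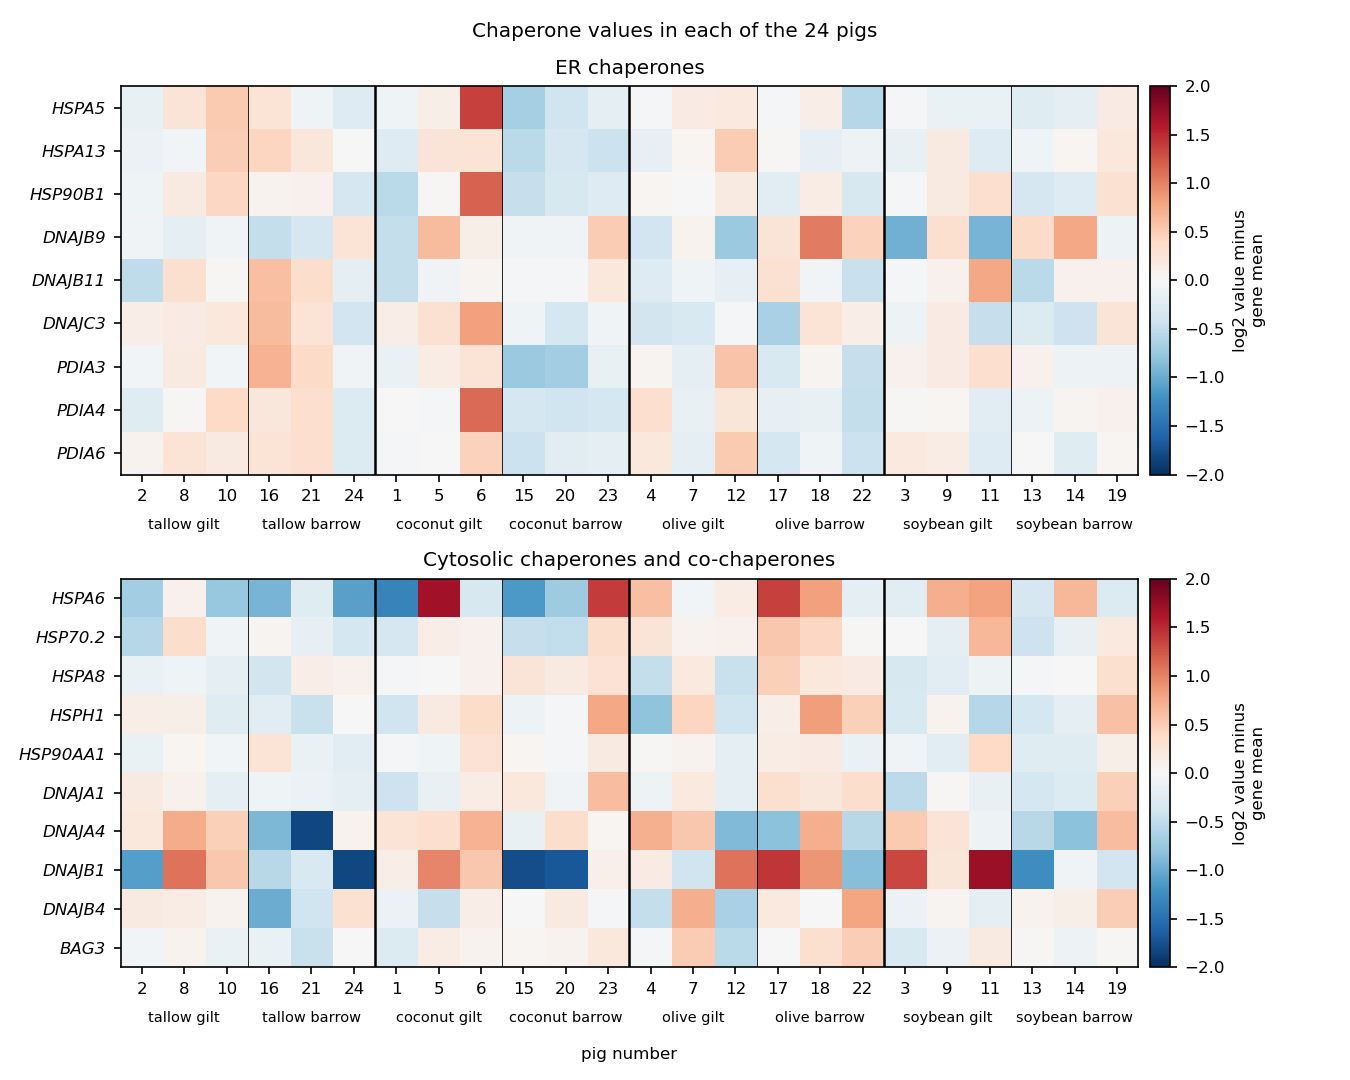
Heat map of log2 signal minus each gene's mean over the 24 pigs, for 9 ER chaperones and for 10 cytosolic chaperones and co-chaperones including HSP70.2; columns are pigs sorted by group and colour gives the deviation. Pig 6 is above the mean in all 9 ER chaperones and pigs 15 and 20 in none of them.

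Pig 6 stood out among the ER chaperones. HSPA5 was 15054 in pig 6, a coconut gilt, and 3657 to 8369 in all others; HSP90B1 was 7785 and PDIA4 1819 in the same pig. Over 9 ER chaperones, a set chosen after values were seen, pig 6 lay above the mean for all 9 and was highest of all pigs for 4 (median deviation 0.46), while pig 15, a coconut barrow, lay above it for 0 and was lowest for 4 (median -0.43). Pig 20, another coconut barrow, was also above the mean for 0 (median -0.34), and pig 16, a tallow barrow, for 8 (median 0.27). In the set of 10 cytosolic genes, chosen in the same way, pigs 6, 8, 17, 18 and 23 were above the mean for 9 and pig 21 for 1. Pig 18, an olive oil barrow, had the highest median there (0.36) and pig 13, a soybean oil barrow, the lowest (-0.34).

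Among 7 pairs of partner chaperones, correlations over the 24 pigs were strong in 2 and moderate in 1. HSPA5 and HSP90B1 had Pearson r = 0.87 (permutation p = 2.0e-05, adjusted over the 7 pairs 7.0e-05) and Spearman rho = 0.75 (permutation p = 5.0e-05, adjusted 0.00035). Without pigs 15 and 6, the farthest from the HSPA5 median, r was 0.69. Centred on the 8 group means it was 0.89, and within the 4 fats it was 0.62 to 0.95. These values hold for the HSP90B1 probe set chosen. The second HSP90B1 probe set disagreed with it between the sexes, and its correlation with HSPA5 was not tested. HSPA5 and PDIA4 had r = 0.86 (permutation p = 1.0e-05, the smallest the permutations can give, adjusted 7.0e-05) and rho = 0.71 (permutation p = 0.00014, adjusted 0.00049). Their r was 0.68 without pigs 15 and 6 and 0.81 centred on groups. Within fats it was 0.97 for coconut oil, 0.70 for tallow, 0.60 for olive oil and 0.50 for soybean oil. HSPA8 and DNAJA1 had r = 0.63 (permutation p = 0.00112, adjusted 0.00261) and rho = 0.65 (permutation p = 0.0008, adjusted 0.00187), with 0.63 without pigs 4 and 17 and 0.52 centred on groups; within fats r was 0.86, 0.94 and 0.74 for coconut, olive and soybean oil but -0.15 for tallow.

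The remaining 4 pairs showed no correlation past the threshold. HSPD1 and HSPE1, which work as one folding chamber and are neighbours in the genome annotation, had r = 0.01 (permutation p = 0.963, adjusted 0.963) and rho = -0.15 (permutation p = 0.496, adjusted 0.643). For HSPH1 with HSP90AA1 r was 0.23 (permutation p = 0.276, adjusted 0.483) and rho 0.28 (permutation p = 0.186, adjusted 0.326). For HSPH1 with DNAJB1 r was -0.06 (permutation p = 0.769, adjusted 0.898) and rho -0.11 (permutation p = 0.592, adjusted 0.643). For HSPB1 with HSPB6 r was 0.08 (permutation p = 0.727, adjusted 0.898) and rho -0.10 (permutation p = 0.643, adjusted 0.643); centred on groups r was 0.37 and within the coconut pigs -0.92. All genes of an array share its scaling, so these pairs are not free of it, and the HSP90B1 values are those of the probe set chosen.

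**Figure D5:**
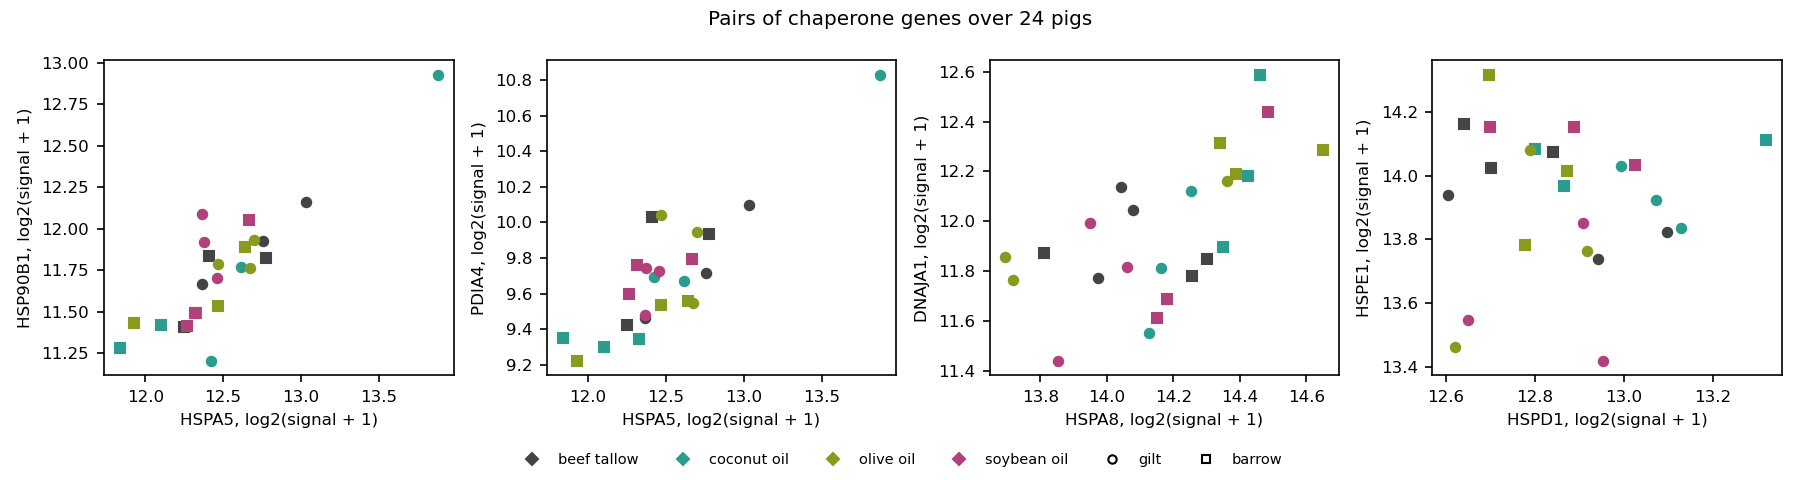
Log2 signal of 4 pairs of partner chaperones in the 24 pigs, 1 point per pig, coloured by dietary fat, with gilts as circles and barrows as squares. HSPA5 rises with HSP90B1 and with PDIA4, with pig 6 at the upper right, whereas HSPD1 and HSPE1 show no trend (r = 0.01).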

How the data were processed

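Per the labels, total RNA was extracted with TRIzol, labelled with biotin and hybridised, 1 array per pig. The authors deposited probe set intensity values (signals); the summarisation and scaling are not given in the sources used here. The mean after trimming 2% at each end was 500.1 to 500.2 on every array. Of 24123 probe sets, 124 controls were left out, and 14399 of 23999 with a mean signal at or above the 40th percentile (86.3) were tested as log2(signal + 1). Limma 3.58.1 in R 4.3.3 (lmFit, eBayes) was fitted on 8 group means with two-sided tests, and was tested on simulated data. Correlations used 100000 permutations (scipy 1.17.1). With arrays in place of counts, precision rests on the number of pigs.

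Symbols came from the supplied annotation, in which 61 of 62 members had an identifier in RefSeq (Sscrofa11.1). Of the chaperones set to be named always, 25 of 28 had a probe set. Also named, 39 in all, were members past a threshold, the 4 with the smallest p in each test and the 6 with the highest mean or widest spread. Members and lists were chosen with earlier results of these data known. The alternatives were other filters, normalizations, pseudocounts (16), spread models, array weights and fewer arrays.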

Additional observations from a re-analysis of the deposited data

Results flagged for a closer look

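Of 156 groups of 6 pigs on the same fat (members named by the rule), 11 held a pig whose gap to the nearest of the others, divided by the range, exceeded Dixon's critical value of 0.625. Chance flags about 1 in 20 groups. Olive oil pig 12, one of the 3 least correlated arrays, accounted for 4. It was lowest for BAG6 (873 against 1343 in the next pig, gap 0.645), DNAJB6 (1247 against 2002, gap 0.747) and HSP90AB1 (8808 against 11803, gap 0.672), and highest for HSPA13 (1081 against 776, gap 0.700). Coconut pig 6 was highest for HSP90B1 (7785 against 3498, gap 0.670) and PDIA4 (1819 against 828, gap 0.741). Soybean oil pig 3 was lowest for HSPA12A (72.1 against 134, gap 0.654) and HSPB8 (10456 against 18919, gap 0.719). Coconut pig 1 was lowest for BAG3 (10954 against 13586, gap 0.645), olive oil pig 22 for HSPA5 (3895 against 5659, gap 0.697) and tallow pig 16 for HSPB2 (1072 against 1595, gap 0.721).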

How the results depend on the processing

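No paired analysis was possible because each pig received a single fat and the sampled pigs are not tied to pens. For coconut oil minus tallow the count of members past the threshold went from 0 to 3 with array weights (HSPA12A, DNAJB6 and DNAJB14), and to 1 with 1 probe set per gene, without the 3 least correlated arrays and with only the compared arrays; without 1 pig it was 0 to 2 (2 without pig 2 or 12, 1 without pig 3, 7 or 24). In barrows the 2 calls became 0 with no filter, with quantile normalization, without the 3 least correlated arrays and with only the compared arrays, and 1 with median centring (DNAJB6, higher); without 1 pig the count was 0 to 3. With a trended and robust spread the count stayed at 2, with DNAJB6 in place of HSPA12A. DNAJB6 also passed there with the filter at the 60th percentile, a pseudocount of 16, array weights and 1 probe set per gene. For barrow minus gilt the count of 0 became 4 with the filter at the 60th percentile, 1 with quantile normalization, 1 with median centring, 3 with a trended and robust spread, 9 with array weights, 2 with 1 probe set per gene and 2 in an additive model; without 1 pig it was 0 to 6 (6 without pig 9, 5 without pig 7, 2 without pig 2, 12 or 18, 1 without pig 16, 19 or 23). The correlation of HSPD1 with HSPE1 turned to -0.034 when centred on groups and ran from -0.14 to 0.090 without 1 pig, that of HSPH1 with DNAJB1 from -0.15 to 0.043, and that of HSPB1 with HSPB6 from -0.12 to 0.18 (-0.28 with quantile normalization, 0.37 centred on groups). The cause was not tested. For single genes, 1775 values kept their side of the threshold, 64 moved past it, 48 fell short of it and 0 changed direction. The HSPA12A signals of the coconut barrows lie on both sides of the filter limit. The calls of UNC45B, CANX and the second probe sets of HSPA9 and HSP90B1 were not recomputed under the alternatives, and 3 pigs per group limit the precision of all differences.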
